A study of Mus musculus with 2 samples.

Results

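The cells described here are monocytes that carried transcripts of Slpi, Il1rn and Irg1 and were taken from mouse tumours of the colon carcinoma line MC38. Members were chosen by their UMIs (counted transcript molecules) of these 3 genes and of 14 genes that set limits on cell type. A barcode belonged to the group when its summed UMIs of Slpi, Il1rn and Irg1 reached 3 and its Csf1r and Lyz2 UMIs together reached 3. It also needed fewer than 3 C1qa, C1qb and C1qc UMIs, fewer than 2 Retnlg, 0 of Cd3d, Cd3e and Cd3g, fewer than 10 of S100a8 and S100a9, and fewer than 3 of Ccr7, Fscn1 and Ccl22. These limits keep out C1q macrophages, neutrophils, T cells and migratory dendritic cells. The group held 99 of 4495 cells, where a cell was a barcode with at least 1000 UMIs and at most 10% mitochondrial UMIs. The control library gave 22 members and the anti-PD-1 library 77.

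Tumours grew in C57BL/6J mice from cells placed in the skin at 4 sites, and viable CD45+ (immune) cells were sorted on day 10 for droplet 3' sequencing. After 7 days of growth, one set received a control injection and the other an antibody against PD-1, an inhibitory receptor of T cells, into the tumours at 200 µg per mouse per day for 3 days. The number, age and sex of the mice behind each group are not given in the sources used here. Because each group is a single library, there was no test between conditions or between cell groups, so values are given with 95% intervals that cover counting error only. The control library held 1174 cells of 5203415 UMIs in its matrix, and the anti-PD-1 library 3321 cells of 13717817 UMIs.

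The 3 genes that define the group each limit an inflammatory response. Slpi encodes a secreted inhibitor of leukocyte proteases, Il1rn the interleukin-1 receptor antagonist, and Irg1 (now Acod1) the mitochondrial enzyme that makes itaconate. All are switched on in myeloid cells by microbial or cytokine signals, together with the cytokines they oppose. Of the other genes listed as markers, Smox oxidises spermine in polyamine metabolism and Timp1 inhibits matrix metalloproteinases. On GRCm38 the protein-coding genes lie at chr2:164354070-164389095 (Slpi), chr2:24336853-24351494 (Il1rn), chr14:103046977-103056573 (Irg1), chr2:131491496-131525922 (Smox) and chrX:20870166-20874735 (Timp1).

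Promoter sequences are shown for Slpi and Il1rn, which chose most of the members, and for Cxcl10 and Rsad2, which stood higher in the members than in other monocytes in both libraries. Each is the 250 bases before a RefSeq start site on the GRCm38.p6 build, written 5′ to 3′ on the strand of the gene. Capitals mark matches, on either strand, to 4 motifs. The kappaB motif was searched as GGGA, any 2 bases, T, any base and CC, and the interferon-stimulated response element (ISRE) as GAAA, any 2 bases and GAAA. The C/EBP motif was searched as TTGCNNAA and the AP-1 motif as TGANTCA, with N for any base.
Slpi, chr2:164356508-164356757, minus strand: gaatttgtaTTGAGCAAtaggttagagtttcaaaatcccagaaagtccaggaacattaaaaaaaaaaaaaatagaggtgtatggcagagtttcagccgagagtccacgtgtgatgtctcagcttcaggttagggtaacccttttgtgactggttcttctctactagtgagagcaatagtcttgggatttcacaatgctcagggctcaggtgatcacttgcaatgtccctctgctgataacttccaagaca
Il1rn, first of 3 starts, chr2:24336610-24336859, plus strand: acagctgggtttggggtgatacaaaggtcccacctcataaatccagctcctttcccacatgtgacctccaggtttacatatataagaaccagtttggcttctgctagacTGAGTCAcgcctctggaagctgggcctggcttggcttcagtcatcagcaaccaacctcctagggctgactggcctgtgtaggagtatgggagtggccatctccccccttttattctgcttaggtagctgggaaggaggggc
Cxcl10, chr5:92348890-92349139, minus strand: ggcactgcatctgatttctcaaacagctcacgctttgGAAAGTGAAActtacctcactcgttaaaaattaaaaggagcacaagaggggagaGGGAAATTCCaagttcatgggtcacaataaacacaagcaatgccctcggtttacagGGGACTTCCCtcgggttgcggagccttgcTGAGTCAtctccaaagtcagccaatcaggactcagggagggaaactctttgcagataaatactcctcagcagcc
Rsad2, chr12:26456453-26456702, minus strand: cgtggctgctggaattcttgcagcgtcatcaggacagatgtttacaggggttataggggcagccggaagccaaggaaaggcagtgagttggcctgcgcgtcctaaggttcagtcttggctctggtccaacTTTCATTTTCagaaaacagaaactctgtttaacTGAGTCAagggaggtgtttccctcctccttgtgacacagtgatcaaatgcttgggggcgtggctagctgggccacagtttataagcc

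Positions count back from the base before the start, and give the leftmost base of a match. The Slpi window held 1 C/EBP match at -241 and the Il1rn window 1 AP-1 match at -141. Neither the other 2 Il1rn starts nor the Irg1 promoter held a match to any of the 4 motifs. The Cxcl10 window held kappaB matches at -159 and -103, an ISRE match at -213 and an AP-1 match at -74. The Rsad2 window held an ISRE match at -120 and an AP-1 match at -87. Over 32851 promoters of the same length, 3.33% held the kappaB letters, 2.98% the ISRE, 9.56% the C/EBP and 6.75% the AP-1 letters. A match describes the letters and is not a measured binding site, and the windows share no motif between Slpi and Il1rn.

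In the control library 1.87% of cells were members (exact binomial interval 1.18 to 2.82%), and with anti-PD-1 the share was 2.32% (1.83 to 2.89%). Their share of all cells was therefore 1.24 times as large with anti-PD-1, with an interval from 0.774 to 1.98 that includes no difference. Among the cells that passed every limit but the first, members were 22 of 174 in control (12.6%, 8.10 to 18.5%) and 77 of 249 with anti-PD-1 (30.9%, 25.2 to 37.1%), a ratio of 2.45 (1.59 to 3.77). The whole gated compartment was the smaller share of the anti-PD-1 library, 7.50% of cells against 14.8% in control. With every cell thinned to 1000 UMIs before the limits were applied, 3 control and 33 anti-PD-1 cells qualified, 0.256% and 0.994% of cells, and 22 of these 33 were members without thinning. The ratio of the thinned shares was 3.89 (1.19 to 12.7). It rests on 3 control cells, all of them members without thinning, and its interval covers counting error only. Thinning also lowers the counts held to an upper limit, so cells can qualify that did not before. The ratio therefore gives no verdict between the conditions. Members had a median of 4175 UMIs in control (2388 to 8616) and 4482 with anti-PD-1 (1131 to 17632). Their median mitochondrial share was 2.02% and 2.46%. The libraries shared 4 cell barcodes, none of them a member.

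The 3 defining genes were carried in different combinations. These values chose the members and are given as description only. In control, 13 of 22 members carried Slpi, 13 carried Il1rn and 4 carried Irg1, while 9 carried Slpi alone and 6 Il1rn alone. With anti-PD-1, 49 of 77 carried Slpi, 59 Il1rn and 37 Irg1. More than 1 of the genes was present in 7 of 22 control members and 53 of 77 anti-PD-1 members, and all 3 in 1 and 15. The median summed count was 4.5 UMIs in control, with a highest cell at 17, and 6 UMIs with anti-PD-1, with a highest cell at 34. Slpi stood at 482 CPM (UMIs per 1000000 UMIs of the group) in control members and 651 in anti-PD-1 members, Il1rn at 782 and 646, and Irg1 at 85.7 and 207. T cells of the same libraries reached the summed minimum in 1 of 351 and 6 of 1708 cells (0.285% and 0.351%, median depths 2902 and 2717 UMIs). C1q macrophages, which the limits leave out, reached it in 33 of 153 and 36 of 149 cells (21.6% and 24.2%), so these transcripts were not restricted to the gated monocytes.

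**Figure D1:**
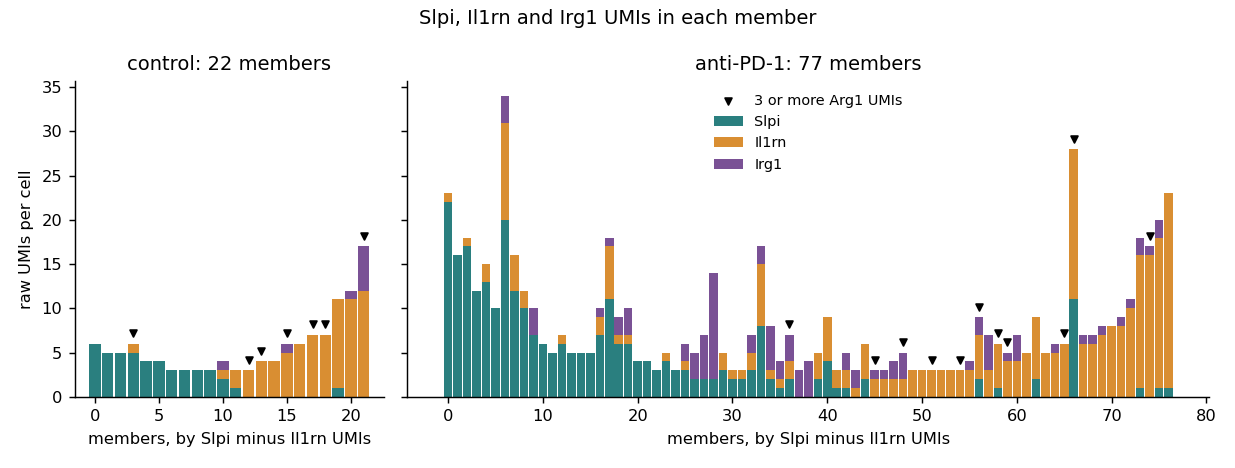
UMIs of Slpi, Il1rn and Irg1 (stacked bars) in each of the 22 control and 77 anti-PD-1 members, ordered from Slpi-rich to Il1rn-rich cells, with triangles over members with 3 or more Arg1 UMIs. Cells with Slpi alone and with Il1rn alone lie at opposite ends, and the triangles lie mostly at the Il1rn end, where one stands over 6 of the 11 Il1rn-led cells in control and 9 of 33 with anti-PD-1.

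The cells just inside and just outside the summed minimum differed little in some genes and much in others. Control members with exactly 3 UMIs numbered 6 and held Cd14 at 568 CPM, against 817 CPM in the 12 gated cells with 2 UMIs. In the anti-PD-1 library 15 cells held 3 UMIs and 34 held 2, with Cd14 at 599 and 315 CPM. Smox stood at 0 CPM in the former and 30.8 CPM in the latter in control, on 0 and 2 UMIs, and at 112 and 85.8 CPM with anti-PD-1. Arg1 stood at 1291 and 154 CPM in control, and at 674 and 80.1 CPM with anti-PD-1. In the cells with 3 UMIs, 1 cell held all 25 Arg1 UMIs in control, and 1 cell held 55 of 72 with anti-PD-1. Gated cells with 1 and 0 UMIs stood at 1026 and 618 CPM of Arg1 in control, and at 71.9 and 105 CPM with anti-PD-1. The Arg1 values therefore show no step at the minimum in control.

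The label of monocytes was checked against marker lists. All 10 classical monocyte genes on the list had UMIs in the members, and 22 of 22 control and 74 of 77 anti-PD-1 members held at least 3 UMIs of the list. Its summed level was 16057 CPM in control and 15725 CPM in anti-PD-1 members, against 12515 and 14771 CPM in the other monocytes. Those of them with at least 2 Ace and Treml4 UMIs stood at 16248 and 13780 CPM. Those with fewer, and with at least 3 Ly6c2 UMIs, stood at 16894 and 16997 CPM. The sum thus did not set members above the latter cells in either library, or above the former in control. Ly6c2, the surface antigen gene of classical monocytes, reached 3 UMIs in 17 of 22 and 62 of 77 members. The nonclassical list stood at 900 and 753 CPM in members and at 1185 and 1574 CPM in other monocytes. Of the 14 neutrophil genes, 3 had UMIs in control members and 10 in anti-PD-1 members, with Ly6g, Cxcr2, Ngp and Camp at 0 in both. The list summed to 257 CPM in control members against 71.4 CPM in other monocytes, with 16 of its 24 UMIs from G0s2, and to 314 against 455 CPM with anti-PD-1. C1q-macrophage genes summed to 8832 CPM in control members against 5083 CPM in other monocytes, where 720 of the 824 member UMIs were Apoe, and to 1522 against 1563 CPM with anti-PD-1. The list of migratory dendritic cells summed to 1061 against 260 CPM in control, where 91 of 99 member UMIs were Ccl5, and to 365 against 213 CPM with anti-PD-1. Fscn1 and Ccl22 of that list were at 0 in control members, and Ccr7 was at 0 in anti-PD-1 members. NK-cell genes summed to 289 CPM in control members against 532 CPM in other monocytes, and to 1253 against 470 CPM with anti-PD-1, where 417 of the 539 member UMIs lay in 1 cell. The part of these lists in the differences between members and other monocytes was not tested. Of the marker genes outside the rule, Smox was carried by 8 of 22 and 41 of 77 members, and Timp1 by 2 and 12. The monocyte part of the name was thus matched by its markers, while Timp1 was found in a minority of members of both libraries and Smox in a minority in control. Of the TNF and NF-kB feedback list, 1 of 11 measured genes was past 2-fold higher and 4 lower than in other control monocytes (median -0.01). With anti-PD-1, 4 of 21 were higher and 0 lower (median 0.45). At a mean of 200 CPM or more, 1 of 4 genes was higher and 0 lower in control (median 0.85). With anti-PD-1, 2 of 4 were higher and 0 lower at that level (median 0.95). The list summed to 3837 CPM in control members against 2414 CPM, and to 3842 against 2491 CPM with anti-PD-1.

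Genes outside the rule were compared with the other monocytes of the same library. These were the 126 control and 154 anti-PD-1 cells that passed the same limits with 0 to 2 UMIs of the 3 genes and under 2 UMIs of the dendritic-cell genes Cd209a, Flt3, Zbtb46 and Xcr1. The dendritic-cell limit took out 26 control and 18 anti-PD-1 cells and was not applied to members. Of the members, 0 in control and 2 with anti-PD-1 held 2 or more such UMIs. Chemokine, C-type lectin, interleukin-1 and interferon-response genes stood higher in the members, with Cxcl10, Rsad2, Arg1 and Smox past 2-fold in both libraries. Arg1 in both libraries, and Cxcl10 and Rsad2 in control, were not higher in members led by Slpi. With anti-PD-1, Rsad2 in members led by Slpi lay within 2-fold of other monocytes, on 11 UMIs in 5 of 31 cells. Members led by Slpi held more Slpi than Il1rn or Irg1 UMIs, a division described below. Genes of patrolling (nonclassical) monocytes such as Ace and Cx3cr1 stood lower. A gene counted as measured when it held at least 20 UMIs in whichever group had the higher CPM, so a gene could enter through the group where it was high. Of 1911 genes measured in control, 47 were past 2-fold higher (2.46%) and 147 lower (7.69%). With anti-PD-1, 174 of 3577 were higher (4.86%) and 216 lower (6.04%). The minimum of 20 UMIs asks for 214 CPM in the few control members but 43.3 CPM in the other control cells, and for 46.5 and 28 CPM in the anti-PD-1 library. Where the mean level of the groups had to reach 200 CPM, 30 genes were higher and 2 lower in control, and 36 higher and 2 lower with anti-PD-1. Of the genes measured in both libraries, 24 were past 2-fold higher in both, 51.1% of those higher in control and 34.3% of those higher with anti-PD-1.

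**Figure D2:**
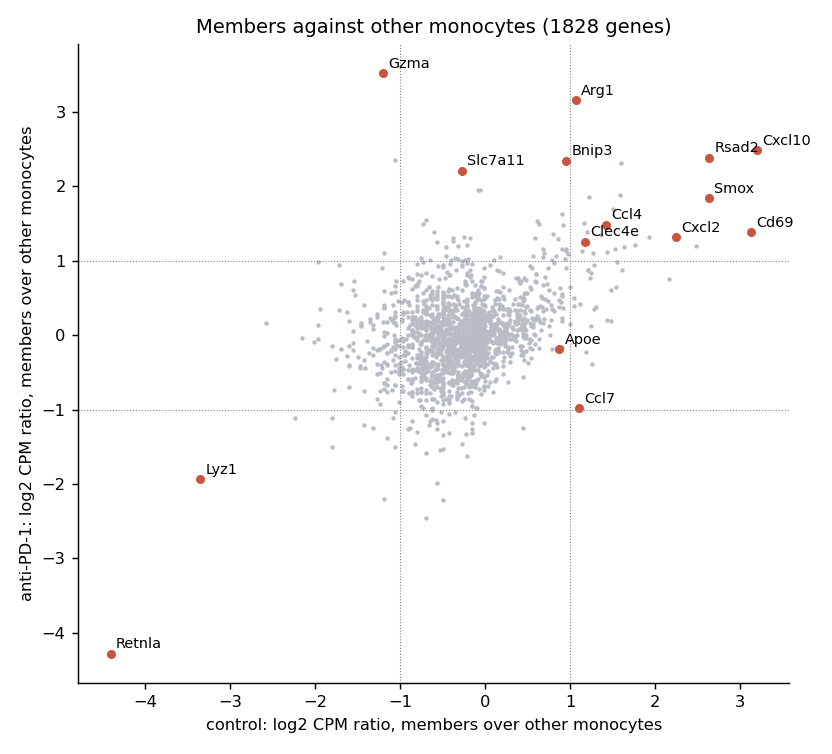
Log2 ratio of CPM in members over other monocytes in the control library (horizontal) and the anti-PD-1 library (vertical) for the 1828 genes measured in both, with named genes labelled. Cxcl10, Rsad2, Smox and Arg1 lie past 2-fold in both libraries, whereas Slc7a11 does so with anti-PD-1 only.

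Several chemokine genes were among those higher in members. Cxcl10, an interferon-induced chemokine that attracts T cells through CXCR3, held 76 UMIs in control members (815 CPM, exact Poisson interval 642 to 1021) and 41 in other monocytes (88.7 CPM), a log2 ratio of 3.20 (2.63 to 3.78). In the anti-PD-1 library it held 1030 UMIs in members (2394 CPM) and 306 in others (428 CPM), a log2 ratio of 2.48 (2.30 to 2.67). The spread differed between the libraries, since the control UMIs lay in 5 cells, with 57.9% in 1 of them, and the anti-PD-1 UMIs in 51 of 77 cells. Without the top control cell the control ratio was 2.02. In members led by Slpi, Cxcl10 stood at 0 CPM in control and 2570 CPM with anti-PD-1. Cxcl9, which binds the same receptor, had a log2 ratio of 2.92 with anti-PD-1 (128 against 28 UMIs), while its 11 against 3 UMIs in control were under the minimum for a call. Cxcl2, a neutrophil attractant, had ratios of 2.24 and 1.31, and Cxcl16 0.63 and 1.49. Of the CXC list, 2 of 3 measured genes were past 2-fold higher in control and 4 of 5 with anti-PD-1, with list medians of 2.24 and 1.49 against all-gene medians of -0.26 and -0.08. Pf4 (Cxcl4) was the exception, past 2-fold lower with anti-PD-1, and 74.2% of its UMIs in other monocytes came from 1 cell.

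CC chemokines and their receptors followed in part. The receptor Ccr1 had log2 ratios of 1.59 in control and 1.88 with anti-PD-1, and the chemokine genes Ccl3 and Ccl4 had 1.22 and 1.86, and 1.42 and 1.48. The list had 6 of 12 genes past 2-fold higher and 0 lower in control, and 5 of 13 higher and 2 lower (Ccl12 and Cx3cr1) with anti-PD-1, with medians of 0.75 and 0.76.

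Several innate sensing receptors stood higher as well. Cd14, the co-receptor for bacterial lipopolysaccharide, was at 986 CPM in control members and 526 CPM in other monocytes, and at 1025 and 330 CPM with anti-PD-1, log2 ratios of 0.91 (0.55 to 1.26) and 1.63 (1.40 to 1.87). It was carried by 17 of 22 and 63 of 77 members. The C-type lectin genes Clec4e (Mincle), Clec4d and Clec4n (Dectin-2) had ratios of 1.18, 1.02 and 1.55 in control and 1.25, 1.47 and 1.62 with anti-PD-1. For Clec4n in control, 13 UMIs lay in 3 members. Clec5a, a further lectin receptor, was at 129 CPM in control members against 51.9, and 207 against 37.8 with anti-PD-1. Of this list, 1 of 5 measured genes was past 2-fold higher in control and 6 of 12 with anti-PD-1, where Tlr13 was past 2-fold lower. The list median in control was 0.86, but -0.042 without the top member per gene.

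Il1b and several other genes of inflammatory mediators stood higher in members. Il1b, which encodes interleukin-1 beta, stood at 4695 CPM in control members against 2903 CPM, and at 3416 against 1590 CPM with anti-PD-1, log2 ratios of 0.69 (0.53 to 0.85) and 1.10 (0.99 to 1.22). Il1a held 34 UMIs in 19 anti-PD-1 members and 5 in other monocytes, a log2 ratio of 3.50 (2.14 to 5.21), but 1 and 5 UMIs in control. Osm (oncostatin M) had ratios of 1.17 and 1.51 and Ptgs2, the inducible cyclooxygenase, 1.36 and 1.34. Nos2, the inducible nitric oxide synthase, was at 0 in control members, where 3 UMIs would be 32.2 CPM. It held 22 UMIs in 10 anti-PD-1 members against 1 UMI in the others. Of the list of inflammatory cytokines and mediators, 2 of 3 measured genes were past 2-fold higher in control (median 1.17, but -0.040 at a summed minimum of 5 UMIs) and 4 of 5 with anti-PD-1 (median 1.51). Of the interleukin-1 family, 4 of 7 measured genes were past 2-fold higher with anti-PD-1 and 0 of 2 in control.

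The type I interferon list had the most genes past 2-fold higher, but it was also the largest function list, with 30 genes. Rsad2 (viperin), an antiviral enzyme, held 45 UMIs in control members (482 CPM) and 36 in others (77.9 CPM), a log2 ratio of 2.63 (1.97 to 3.31). With anti-PD-1 it held 126 and 40 UMIs (293 and 56.0 CPM), a ratio of 2.39 (1.86 to 2.94). Its UMIs came from 5 control and 24 anti-PD-1 members. In members led by Slpi, Rsad2 stood at 0 CPM in control and 63.7 CPM with anti-PD-1. The type I interferon list summed to 3643 and 5521 CPM in those cells, against 4505 and 4973 CPM in other monocytes. Ifit3 had ratios of 2.48 and 1.2, Isg15, a ubiquitin-like modifier, 1.53 and 1.15, and Oasl1 2.99 and 2.25. Over all measured genes, 2.46% in control and 4.86% with anti-PD-1 were past 2-fold higher, with medians of -0.26 and -0.08. Of the type I interferon list, 7 of 15 measured genes were past 2-fold higher in control and 8 of 23 with anti-PD-1. None was past 2-fold lower in either, and the medians were 0.91 and 0.61. Of the 8 genes higher with anti-PD-1, 7 matched a RefSeq promoter by symbol, and 5 of the 7 held the ISRE letters in their 250 bases. The genes were picked from a list of interferon-response genes, so this share describes the list and not the members. The share among genes of the list that were not past 2-fold was not computed. For the GTPases and other targets of interferon-gamma, 1 of 8 genes was past 2-fold higher in control (median 0.02) and 6 of 13 with anti-PD-1 (median 1.0).

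Among metabolic genes, Smox stood past 2-fold higher in members of both libraries, and Slc7a11 and Slc2a1 with anti-PD-1. Smox was at 268 CPM in control members (25 UMIs in 8 cells) against 43.3 CPM, and at 191 CPM (82 UMIs in 41 cells) against 53.2 CPM with anti-PD-1, log2 ratios of 2.63 (1.72 to 3.56) and 1.84 (1.27 to 2.44). Slc7a11, the cystine importer, was no higher in control members (5 UMIs, 53.6 CPM against 64.9) and stood at 279 against 60.2 CPM with anti-PD-1, a ratio of 2.21 (1.70 to 2.75). One cell held 31.7% of the 120 UMIs, and without it the ratio was 1.70. Slc2a1, the glucose transporter, had ratios of 1.19 and 2.16, and Bnip3, a hypoxia-induced mitophagy receptor, 0.95 and 2.34. Glycolysis genes gave like values in both libraries, with 8 of 11 measured genes above 0 in control (median 0.45, 1 past 2-fold, Slc16a3) and 12 of 12 with anti-PD-1 (median 0.53, 1 past 2-fold, Slc2a1). Hypoxia-inducible factor targets had 5 of 10 genes past 2-fold higher with anti-PD-1 (median 1.0) and 0 of 6 in control (median 0.00).

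Arg1, the arginase that depletes arginine and that the study's title names, stood at 1886 CPM in control members against 902 CPM, a log2 ratio of 1.06 (0.80 to 1.32). With anti-PD-1 it stood at 913 against 102 CPM, a ratio of 3.16 (2.80 to 3.54). Few members carried it, and in members led by Slpi it stood at 129 CPM in control and 0 CPM with anti-PD-1. At least 3 Arg1 UMIs were present in 7 of 22 control members (31.8%, 13.9 to 54.9%) and 11 of 77 anti-PD-1 members (14.3%, 7.35 to 24.1%), and these cells held 172 of 176 and 392 of 393 Arg1 UMIs. Among other monocytes the shares were 15.1% and 4.55%, and among C1q macrophages 60.8% and 37.6%. Without its top control cell the control ratio was 0.52, under 2-fold. In cells thinned to 1000 UMIs, 36.4% of the control members and 13% of those with anti-PD-1 carried at least 1 Arg1 UMI, against 18.3% and 5.19% of other monocytes.

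Spp1 (osteopontin) had a log2 ratio of 3.04 with anti-PD-1 and 0.78 in control, with 48.8% of its 168 anti-PD-1 UMIs in 1 cell and a ratio of 2.1 without it. Timp1 had ratios of 2.12 (7 against 8 UMIs) and 2.73 (24 against 6). Tarm1, an activating receptor of myeloid cells, had 0.38 and 2.78, Sdc4, a heparan sulfate proteoglycan, 0.41 and 2.40, and Cd274, the gene of PD-L1, -0.18 and 1.31. Basp1 had 2.14 and 2.28. Whether any of these differences between libraries exceed those between mice was not tested, since each library stands alone.

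**Figure D3:**
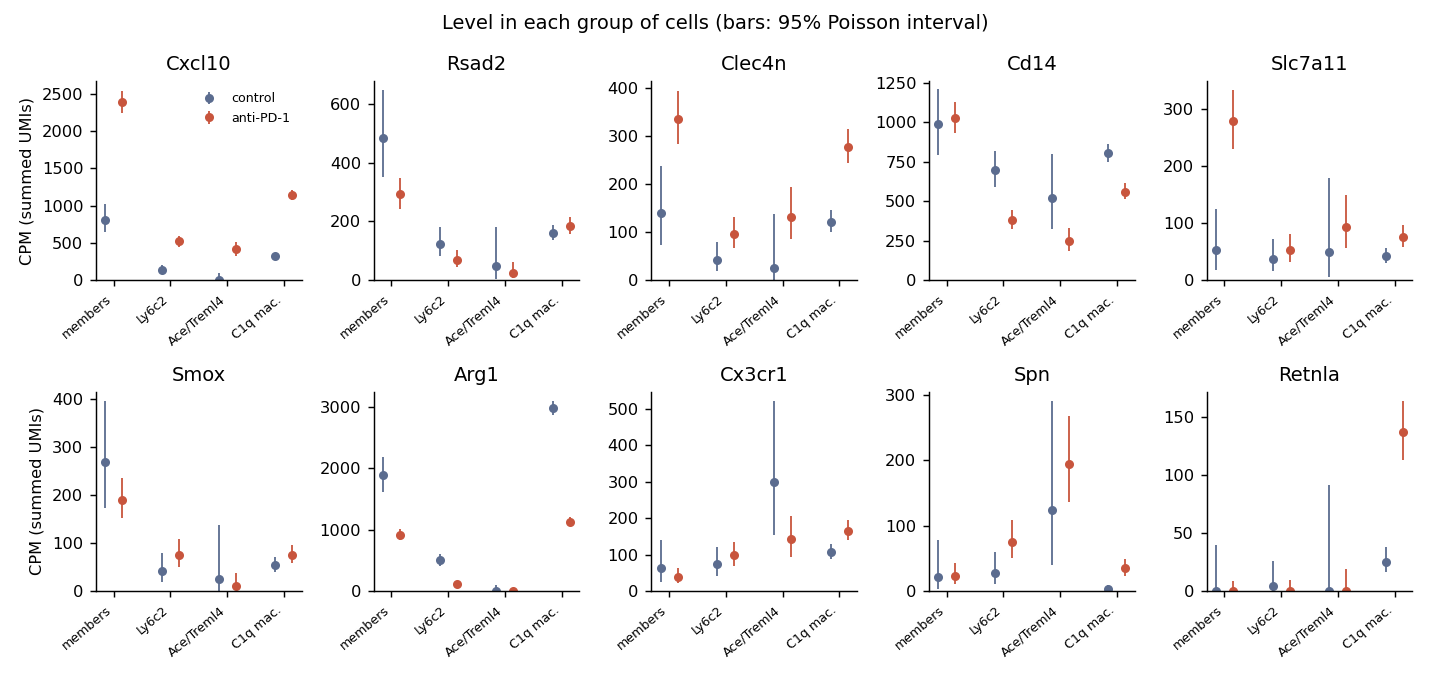
CPM of 10 genes in members, Ly6c2 monocytes, Ace and Treml4 monocytes and C1q macrophages of each library, with exact Poisson 95% bars. Cxcl10 in anti-PD-1 members (2394 CPM) lies above its level in C1q macrophages (1142 CPM), while Arg1 in members (1886 and 913 CPM) lies below it (2978 and 1131 CPM).

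Genes lower in members included several of patrolling monocytes. Ace, angiotensin-converting enzyme of patrolling monocytes, held 1 UMI in control members against 34 in others, and 9 against 69 with anti-PD-1, log2 ratios of -1.19 and -2.21. Spn (CD43) and Cx3cr1, the fractalkine receptor, had -0.50 and -0.53 in control, and -2.21 and -1.54 with anti-PD-1. The control intervals of both reach past 0. The transcription factor Klf2 had -1.80 and -1.51. Sh2d1b1, Mknk2, Ptpn22, Abcg1, Adrbk2, Xdh and Stk10 had ratios between -2.46 and -1.56 with anti-PD-1, on 26 to 42 other monocytes with a UMI of each. Retnla, a gene induced by interleukin-4 in macrophages, was at 0 in the members of both libraries, but its 315 and 97 UMIs in other monocytes lay in 7 and 3 cells. The list of such interleukin-4-type genes had 3 of 7 measured genes past 2-fold lower in control (median -0.65), but 1 of 3 with anti-PD-1, where the median was 0.69. Lyz1 rested on few cells likewise, with 67.1% of its control and 88.2% of its anti-PD-1 UMIs in 3 cells. Of the cell-cycle list, 2 of 4 measured genes in control and 4 of 13 with anti-PD-1 were past 2-fold lower, with medians of -0.78 and -0.44.

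At least 2 Ace and Treml4 UMIs were held by 6 of 77 anti-PD-1 and 0 of 22 control members. The members were therefore also set against Ly6c2 monocytes. These were the 56 control and 78 anti-PD-1 other monocytes with at least 3 Ly6c2 UMIs and under 2 Ace and Treml4 UMIs. Neither limit was applied to members, and 5 of 22 and 15 of 77 held 0 to 2 Ly6c2 UMIs. Arg1 stood at 3232 CPM in those control members against 1531 CPM in the rest, and at 2044 against 666 CPM with anti-PD-1. Against the Ly6c2 monocytes, 50 of 1252 genes were past 2-fold higher in control (3.99%) and 87 lower (6.95%). With anti-PD-1, 185 of 2840 were higher (6.51%) and 71 lower (2.50%). Cxcl10 remained at log2 ratios of 2.51 and 2.20, Rsad2 at 1.96 and 2.05, Smox at 2.69 and 1.33, and Arg1 at 1.92 and 3.01. Cd14 was at 0.50 and 1.43. Cxcl10, Rsad2, Smox and Arg1 thus lay past 2-fold above Ly6c2 monocytes in both libraries, and Cd14 with anti-PD-1 only.

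Members were also set apart by their leading gene. Each member was placed by whether Slpi or Il1rn had more UMIs, a comparison chosen after values were seen and made with counts that chose the members, so that it describes these cells only. Both genes were carried by 4 of 22 control and 33 of 77 anti-PD-1 members, and 2 and 8 led cells were decided within 1 UMI. In control 11 members were led by Slpi and 11 by Il1rn, and with anti-PD-1 31 and 33, while 11 further cells were led by Irg1 and 2 were tied. Il1rn-led cells carried more of the antigen-presentation genes and more Arg1, and Slpi-led cells more of some classical monocyte genes such as Hp and F13a1. Il1rn-led cells were also deeper, with median UMIs of 4682 against 3287 in control and 5042 against 4159 with anti-PD-1. Of 456 measured genes in control, 87 were past 2-fold higher in Il1rn-led cells (19.1%) and 38 lower (8.33%). With anti-PD-1, 143 of 1533 were higher (9.33%) and 56 lower (3.65%).

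Arg1 held 171 UMIs in Il1rn-led and 5 in Slpi-led control members, a log2 ratio of 4.60 (3.35 to 6.24). With anti-PD-1 it held 319 and 0 UMIs, 93.3-fold higher with the Slpi-led cells set to 3 UMIs (lower limit of the log2 ratio 6.24). At least 3 Arg1 UMIs were found in 6 of 11 and 9 of 33 Il1rn-led cells, against 1 of 11 and 0 of 31 Slpi-led cells. The MHC class II gene H2-Eb1, which encodes a chain that presents peptides to CD4 T cells, stood at 4048 against 310 CPM in control and 1599 against 57.9 CPM with anti-PD-1, ratios of 3.71 (2.87 to 4.68) and 4.79 (3.89 to 5.86). H2-Ab1 had ratios of 2.98 and 3.92 and Cd74, the invariant chain, 2.99 and 2.74. Of the MHC class II list, 7 of 8 genes in control and 6 of 8 with anti-PD-1 were past 2-fold higher, with medians of 2.11 and 2.33 against all-gene medians of 0.01 and -0.02. Without the members that held 3 or more Arg1 UMIs these medians were 1.60 and 2.09.

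Classical monocyte genes summed to 19687 CPM in Slpi-led and 13483 CPM in Il1rn-led control members, and to 19485 and 11790 CPM with anti-PD-1. The nonclassical list stood at 1576 and 421 CPM in control but at 613 and 731 CPM with anti-PD-1. Hp (haptoglobin) was at 672 CPM in Slpi-led and 110 CPM in Il1rn-led control members, and at 914 and 162 CPM with anti-PD-1, log2 ratios of -2.61 (-4.18 to -1.30) and -2.49 (-3.09 to -1.94). F13a1, coagulation factor XIII, had -2.37 and -4.44. Ly6c2 and Ccr2, the receptor through which monocytes leave the bone marrow, lay within 2-fold in both libraries, at -0.40 and -0.77, and at 0.09 and -0.47. Smox showed no difference beyond counting error, at 0.09 (-1.16 to 1.40) and 0.06 (-0.66 to 0.78). The control value rests on 1 cell, which held 9 of the 10 Smox UMIs of the Slpi-led control members. With anti-PD-1, Smox UMIs were found in 16 of 31 Slpi-led and 20 of 33 Il1rn-led cells.

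The interferon genes also differed between the leading genes, with other values in each library. Rsad2 held 45 UMIs in Il1rn-led and 0 in Slpi-led control members, 10.6-fold higher with the latter set to 3 UMIs (lower limit of the log2 ratio 3.05). With anti-PD-1 it held 109 and 11 UMIs, a ratio of 3.12 (2.22 to 4.16). Cxcl10 held 76 and 0 UMIs in control, but 448 and 444 with anti-PD-1, a ratio of -0.18 (-0.37 to 0.02). All 13 measured type I interferon genes were past 2-fold higher in Il1rn-led control cells (median 2.15), and 6 of 19 with anti-PD-1 (median 0.89). The difference between the libraries was not tested. Macrophage genes differed along the same division: the C1q-macrophage list summed to 12347 CPM in Il1rn-led and 3875 CPM in Slpi-led control members, and to 2517 and 509 CPM with anti-PD-1. Dendritic-cell (cDC2) genes summed to 183 and 77.5 CPM, and 325 and 139 CPM. NK-cell genes summed to 421 and 103 CPM, and 2487 and 214 CPM, with 417 anti-PD-1 UMIs in 1 cell. The part of these lists in the result was not tested. Outside the rule genes, the C1q-macrophage list stood at 12292 CPM in Il1rn-led control members. It stood at 13705 CPM in control C1q macrophages and 5020 CPM in other control monocytes. With anti-PD-1 these values were 2462, 5603 and 1531 CPM. The classical monocyte list stood at 4453 CPM in control and 4913 CPM in anti-PD-1 C1q macrophages, below its level in Il1rn-led members.

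**Figure D4:**
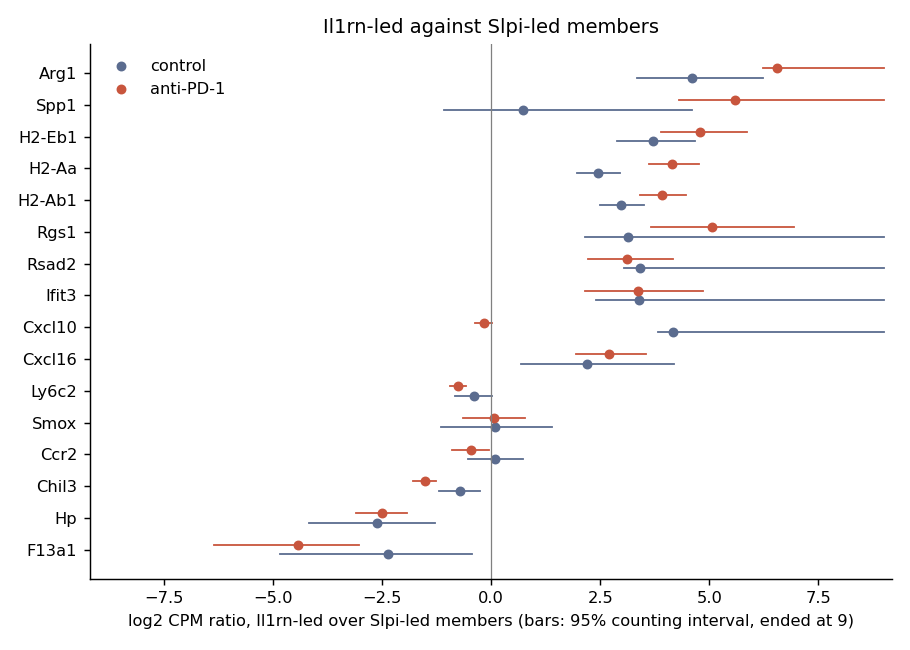
Log2 ratio of CPM in Il1rn-led over Slpi-led members for 16 genes in the control and anti-PD-1 libraries, with 95% intervals drawn to at most 9. Arg1, H2-Eb1 and H2-Ab1 lie to the right in both libraries, Hp and F13a1 to the left, Smox at 0.09 and 0.06, and Cxcl10 apart between the libraries.

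Between conditions, MHC class II, Arg1 and CC chemokine genes stood lower in anti-PD-1 members than in control members, as in other monocytes. Interferon-gamma targets such as Iigp1 stood higher, on few control UMIs per gene. Of 1936 genes with at least 20 UMIs in the library of higher CPM, 207 were past 2-fold higher (10.7%) and 31 lower (1.60%). At a mean of 200 CPM or more, which asks the same level of both libraries, the split was 12 higher and 24 lower, and the median of all 1936 genes was 0.32. In other monocytes 228 of 3606 genes were higher (6.32%) and 124 lower (3.44%), with a median of 0.13. Summed UMIs of the members were 93295 in control and 430272 with anti-PD-1, so 20 UMIs ask for very different levels.

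Iigp1, an interferon-inducible GTPase of cell-autonomous immunity, held 5 UMIs in 4 control members (53.6 CPM) and 149 in 46 anti-PD-1 members (346 CPM), a log2 ratio of 2.69 (1.44 to 4.34). In other monocytes its ratio was 1.17 (0.61 to 1.76). Gbp4 had 2.02 in members and 0.20 in others, the transcription factor Irf1 1.82 and 1.01, and Igtp 1.81 and 0.52. Of the interferon-gamma list, 8 of 12 measured genes were past 2-fold higher in members (median 1.23) and 4 of 13 in other monocytes (median 0.63). Most of these genes held under 20 UMIs in control members and were measured through the deeper anti-PD-1 members. At a mean of 200 CPM, 1 of 4 genes was past 2-fold higher in members, with a median of 0.23, and with both groups thinned to equal summed UMIs the median was 1.18. Summed over all 16 genes without a minimum, the list stood at 1726 CPM in control and 3270 CPM in anti-PD-1 members. Cxcl10 and Cxcl9 had ratios of 1.56 and 1.34 in members and 2.27 and 2.59 in others. The type I interferon list did not follow, with 0 of 18 genes past 2-fold higher, 2 lower and a median of -0.14.

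Slc7a11 had a log2 ratio of 2.38 (1.12 to 4.03) in members and -0.11 (-0.82 to 0.61) in other monocytes, on 5 control UMIs. Cd274 had 1.54 (0.24 to 3.21) and 0.06 (-0.66 to 0.79), likewise on 5 control UMIs. Lmna, Tuba1a, Sf3b2, Fbxl5 and Serpina3g lay between 2.04 and 2.14 in members, each on 3 or fewer control UMIs. The granzyme genes Gzma, Gzmc and Gzmb lay at 3.26, 3.10 and 2.04, but 1 cell held 95.5%, 99.2% and 42.1% of their anti-PD-1 UMIs.

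CC chemokines and receptors had 0 of 10 genes past 2-fold higher and 3 lower in members, with a median of -0.86. In other monocytes 1 of 13 was higher and 5 lower, with a median of -0.67. MHC class II genes were lower in anti-PD-1 members, 4 of 8 past 2-fold (Cd74, H2-Ab1, H2-Eb1 and H2-Aa) with a median of -0.99, and 6 of 9 in other monocytes with a median of -1.63. Arg1 had a log2 ratio of -1.05 (-1.31 to -0.78) in members and -3.14 (-3.52 to -2.78) in others. Apoe, a lipid carrier of macrophages, was at 7717 CPM in control and 965 CPM in anti-PD-1 members, a ratio of -3.00 (-3.18 to -2.82), and at -1.93 in others. Ccl7, a monocyte attractant, held 106 UMIs in 4 control members and 25 in 9 anti-PD-1 members, a ratio of -4.29 (-4.98 to -3.65), against -2.20 in others. Ccl5, Cd69, Trf, Thbs1, Lgmn, Nr4a2, Gatm, Eno1, Svbp and Tmem176a lay between -2.72 and -1.40 in members. Smox and Timp1 had -0.49 (-1.15 to 0.22) and -0.43 (-1.69 to 1.03), so no difference beyond counting error was seen for either. Glycolysis genes had a median of -0.59 in members and -0.43 in others, and hypoxia-inducible factor targets -0.72 and -1.45. Neither direction in members was stable, since the glycolysis median was 0.044 with cells of equal weight and the hypoxia-inducible factor median 0.053 without the top member per gene. NK-cell genes (289 and 1253 CPM) and C1q-macrophage genes (8832 and 1522 CPM) also differed between control and anti-PD-1 members, and their part in these values was not tested.

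**Figure D5:**
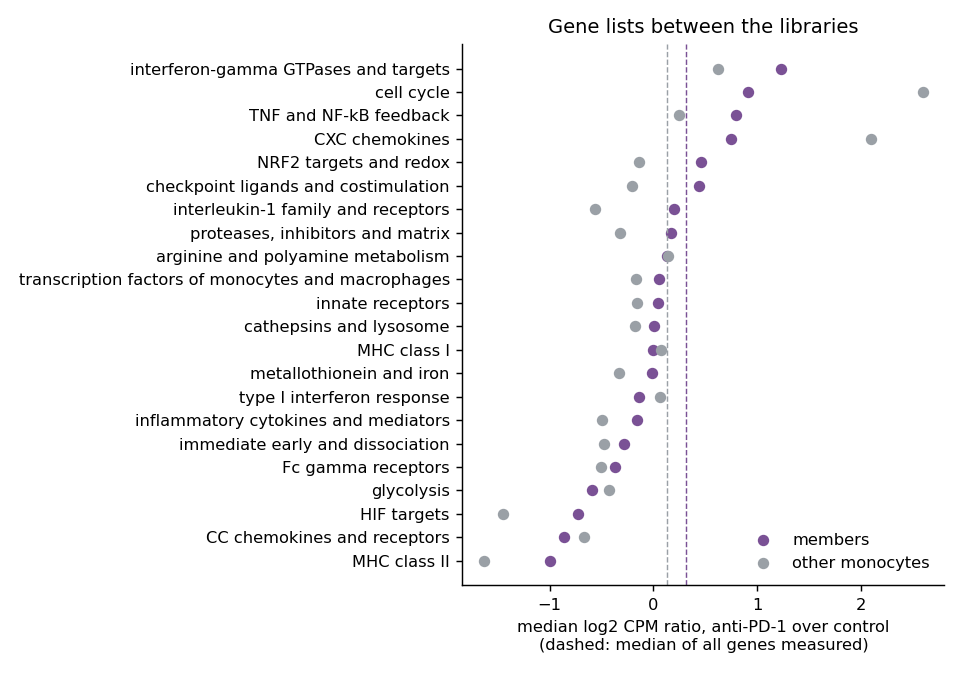
Median log2 ratio of anti-PD-1 over control for each gene list in members and in other monocytes, with dashed lines at the medians of all measured genes (0.32 and 0.13). Interferon-gamma targets lie at 1.23 and 0.63, MHC class II at -0.99 and -1.63, and cell-cycle genes at 0.91 and 2.59.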

How the data were processed

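The deposited files are 2 matrices of raw UMI counts, each with 27998 genes and 737280 barcodes. The authors made these counts with Cell Ranger 2.1 on the mm10 build, per the submitters' processing notes. Barcodes with at least 1000 UMIs and at most 10% mitochondrial UMIs were kept as cells, without a doublet caller. Members and comparison cells were taken by the UMI limits stated with the results. The members, gene lists and comparisons were chosen with earlier results of these data known.

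Each group's UMIs of a gene were added up and divided by the group's total to give CPM, so deep cells weigh more. Levels carry exact Poisson intervals, shares exact binomial (Clopper-Pearson) intervals, log2 ratios conditional binomial intervals and the ratio of 2 shares a log-normal interval, all at 95% and for counting error only. A group under 3 UMIs was set to 3 for a ratio, and no ratio was formed where both were under 3. A gene was measured when the group of higher CPM held 20 UMIs, and was past the threshold at 2-fold. The 17 rule genes were not called. Mitochondrial and ribosomal protein genes stayed in the counts and medians of measured genes and were left out only of the ranked named genes.

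Named genes were the 12 highest and 12 lowest in members against other monocytes (30 UMIs and 50 CPM with anti-PD-1, 5 UMIs and the same direction in control). They were also the 12 highest and 12 lowest between conditions (20 UMIs and 50 CPM), Arg1, Smox, Timp1, Cd274, Nos2, Spp1, Cxcl9, Cxcl10 and Mrc1, and members of 23 function lists. Genes named between Il1rn-led and Slpi-led cells were chosen after their values were seen. The share of free RNA in cells, estimated from macrophage genes in T cells (at least 2 Cd3 UMIs and under 3 of Csf1r and Lyz2), was 1.77% in control and 2.88% with anti-PD-1. The scripts were tested on simulated data and used Python 3.11.15, numpy 2.4.6, scipy 1.17.1 and pandas 2.3.3. Gene positions came from GENCODE on GRCm38 and promoters from RefSeq on GRCm38.p6. Il36g, Cxcl11, Clec7a, Mx2, Cebpd, Ighm and Igkc were not analysed here.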

Additional observations from a re-analysis of the deposited data

Results flagged for a closer look

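The log2 ratio of members over other monocytes had opposite signs in the 2 libraries, with intervals that excluded 0 in both, for 4 genes, and none of these differences was tested. For Apoe the anti-PD-1 ratio minus the control ratio was -1.07 (-0.19 with anti-PD-1, 0.87 in control). For Ccl7 it was -2.09 (-0.98 and 1.11), and 50.9% of the 106 control member UMIs came from 1 of 4 cells. For Gzma it was 4.72 (3.52 and -1.20), with 95.5% of the anti-PD-1 member UMIs in 1 cell. For Gzmb it was 2.94 (0.98 and -1.96), with 42.1% of the UMIs in 1 cell and 1 UMI in control members. The ratio of anti-PD-1 over control likewise had opposite signs in members and other monocytes for Gzma (3.26 and -1.46, a difference of 4.72) and Gzmb (2.04 and -0.90, a difference of 2.94).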

How the results depend on the processing

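With 1 library per group no replicate could be left out, and every value depends on few cells. No paired analysis was possible because each group is 1 library. Of 1810 values of 196 named-gene results under other settings, 1608 moved by less than the counting error, 194 moved by more and 8 reversed. Of 927 list medians of 104 results, 717 kept their value, 203 moved and 7 reversed, and of 118 counts and shares of 12 results, 66 and 52. The comparison of Il1rn-led with Slpi-led members, its alternatives and the 200 CPM minimum were chosen after seeing the data. Where 3 UMIs set the sign, no value was formed, and the cause of a change was not tested unless its construction (fewer cells, fewer genes) shows it.

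At a summed minimum of 2 UMIs, Lyz1 and Retnla with anti-PD-1 turned to 2.08 and 1.47. At a minimum of 5, inflammatory cytokines in control turned to -0.040 and Gzma with anti-PD-1 to -3.39. Gzma turned to -0.59 without cells with lymphocyte transcripts, to -1.19 without the deepest 5% of cells and to -0.89 without its top member, and its ratio between conditions to -1.16 without the deepest cells. The IL-4 list with anti-PD-1 turned to -0.72 with dendritic cells kept. With cells of equal weight, the ratio between conditions of Svbp was 0.10 and of the glycolysis list 0.044. Without the top member per gene, innate receptors in control were at -0.042 and hypoxia-inducible factor targets between conditions at 0.053. With equal summed UMIs the TNF list between conditions was at -0.19, and without members with 3 or more Arg1 UMIs glycolysis in Il1rn-led control cells was at -0.033.

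The anti-PD-1 share of members was 3.04% at 2000 UMIs per cell. Shares were 2.90% (control) and 3.34% at a minimum of 2 UMIs, 0.937% and 1.69% at 5 UMIs, and 0.256% and 0.994% in thinned cells. Genes past 2-fold higher in control members were 73 with dendritic cells kept, 13 at equal weight, 127 and 16 at 10 and 50 UMIs per gene, 14 without the top member and 30 at 200 CPM. Lower were 84 at a summed minimum of 5, 36 at equal weight, 46 at 50 UMIs per gene, 282 without the top member and 2 at 200 CPM. With anti-PD-1, higher were 273 against cells at 0 UMIs, 73 at equal weight, 314 and 80 at 10 and 50 UMIs per gene, 104 without the top member and 36 at 200 CPM. Lower were 131 and 384 at summed minimums of 2 and 5, 133 against cells at 0, 84 at equal weight, 531 and 43 at 10 and 50 UMIs per gene, 372 without the top member and 2 at 200 CPM. Between conditions, higher were 322 and 133 at summed minimums of 2 and 5, 75 at equal weight, 78 at 50 UMIs per gene, 37 at equal summed UMIs and 12 at 200 CPM. Lower were 5 at equal weight, 90 and 13 at 10 and 50 UMIs per gene, 18 without the top member and 50 at equal summed UMIs. In Il1rn-led against Slpi-led control cells, higher were 21 at equal weight and 30 without Arg1 cells, and lower 7 at equal weight, 24 without the top cell and 77 at 200 CPM. With anti-PD-1, higher were 35 at equal weight and 53 at 200 CPM, and lower 16 and 18.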
